A study of Mus musculus with 4 samples.

Results

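The genes described here are 10 genes that mark lipid-handling phagocytes and whose expression needs the receptor TREM-2 in microglia and in lipid-laden macrophages: *Lpl*, *Gpnmb*, *Cd9*, *Cd63*, *Cst7*, *Itgax*, *Lgals3*, *Lilrb4*, *Csf1* and *Spp1*. They were chosen by name, and each was read from the probe set whose platform annotation gives that gene alone. Of the 10, 9 were measured among 19946 genes in all. *Lilrb4* is listed under its current symbol *Lilrb4a*, and *Spp1*, which encodes osteopontin, was not analysed here because no probe set was assigned to it alone. None of the 9 passed the test between genotypes.

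TREM-2 is a lipid-sensing receptor of macrophages and microglia that signals through the adaptor DAP12. In the diseased or demyelinated brain, microglia take up lipid debris and pass through a stage that does not depend on TREM-2 and then a stage that does, and the genes above belong to the latter. Macrophages of obese fat tissue and of arterial plaques take on a similar set of genes. Alveolar macrophages (AM) clear surfactant lipid from the airspace and carry CD11c, the product of *Itgax*, at rest. Whether these genes also require TREM-2 in AM is the question that the comparison addresses.

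AM were recovered by bronchoalveolar lavage from untreated mice of 8 to 10 weeks, matched for age and sex. WT AM came from C57/Blk6 mice (2 arrays), and *Trem-2*-/- AM came from mice lacking TREM-2 in all cells, whose mutation had been backcrossed 10 times onto C57/Blk6 (2 arrays). WT mice were bought from a commercial breeder, whereas the mutants came from the backcrossed line, and all were bred in the same facility. Genotype and origin of the mice cannot be told apart. Each Affymetrix gene array was hybridized with RNA of pooled mice, and how many mice went into a pool is not given in the sources used here. The p-values thus reflect how far these 4 arrays spread, and that spread may be technical only. In bulk RNA, fewer cells of a type and less RNA per cell cannot be told apart.

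All values are log2 signals from robust multi-array averaging (RMA), and differences are given as *Trem-2*-/- minus WT with the adjusted p from limma over all genes. The array medians lay between 5.84 and 5.86, the lower quartiles between 4.39 and 4.40 and the upper quartiles between 8.13 and 8.17. *Trem2* itself read 9.58 and 9.74 in WT AM and 7.64 and 7.45 in *Trem-2*-/- AM, and so fell by 2.11 on the log2 scale (standard error 0.10, limma's adjusted p = 0.0009). Of 12 measured AM markers, 9 lay above the upper quartile on all 4 arrays, among them *Chil3* (WT mean 12.68), *Marco* (12.20), *Mrc1* (12.11), *Fabp4* (10.26) and *Pparg* (10.20). The other 3, *Cidec* (7.64), *Fabp1* (6.93) and *Car4* (5.95), lay below it on every array.

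Differences between genotypes were small for all measured members. Of the 9 measured members, 0 were called higher and 0 lower by limma, against 0.431% of all genes called higher and 0.135% called lower. At an unadjusted p below 0.05, limma gave 1 member, *Lgals3*, against 11.5% of all genes, and significance analysis of microarrays (SAM), the test named in the study's methods, called 0 members against 0.963% of all genes. The log2 fold changes of the members ran from -0.22 to 0.02 with a median of -0.06, beside a median of -0.02 over all genes, and 6 of the 9 changed by less than 0.083, the median absolute change of all genes. The direction was downward for 8 of the 9. In 5 of them, both *Trem-2*-/- arrays lay below both WT arrays, an arrangement also found in 25.4% of all genes, and in 0 members did both lie above, as in 17.4% of all genes. One of the 5, *Cd9*, barely separated, at 13.3202 on the lower WT array and 13.3197 on the higher *Trem-2*-/- array.

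**Figure D1:**
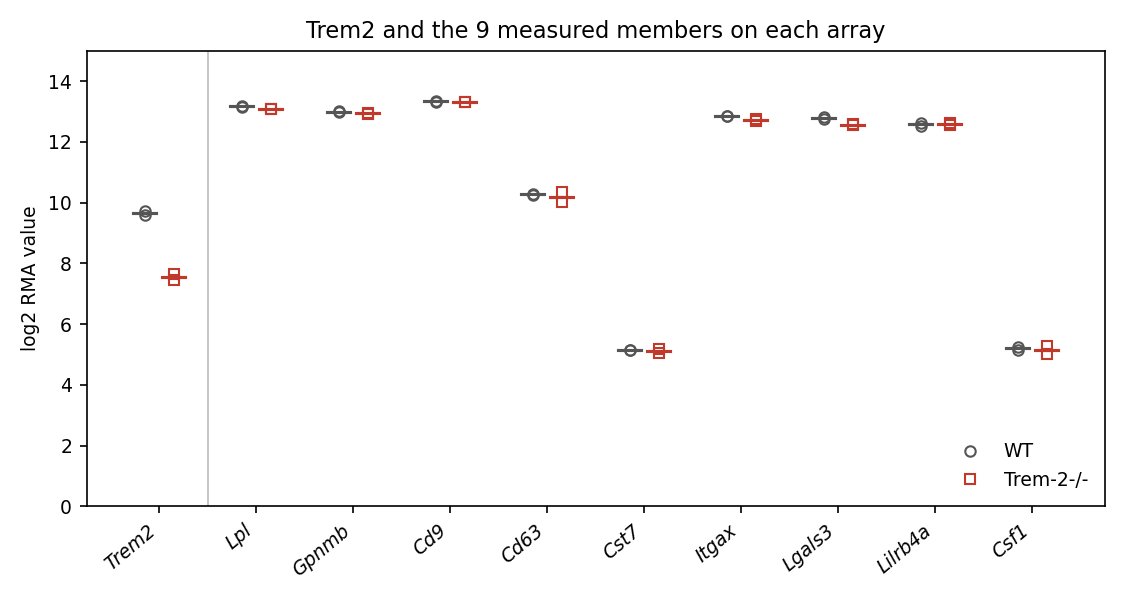
Log2 RMA value of *Trem2* and of each measured member on each of the 4 arrays; circles are WT AM, squares *Trem-2*-/- AM, and short lines the means of 2 arrays. *Trem2* fell by 2.11, whereas no member's means lie further apart than the 0.22 by which *Lgals3* dropped.

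Among the genes that handle lipid, *Lpl* encodes lipoprotein lipase, the secreted enzyme that releases fatty acids from triglyceride-rich lipoproteins. It read 13.18 and 13.16 in WT AM and 13.10 and 13.08 in *Trem-2*-/- AM. Both *Trem-2*-/- arrays lay below both WT arrays, but the gap was small, with a log2 fold change of -0.08 (95% interval -0.25 to 0.09, limma's adjusted p = 0.72). On the linear scale this interval spans 83.9% to 106% of the WT signal.

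The partners of lipoprotein lipase were read as well. *Angptl4*, its secreted inhibitor, differed by 0.33 on the log2 scale (95% interval 0.08 to 0.59, limma's adjusted p = 0.33), and *Lmf1*, which encodes the factor needed for the enzyme to fold, differed by -0.05. *Gpihbp1*, its anchor on capillary endothelium, differed by -0.09 and *Vldlr*, a receptor for lipoproteins, by -0.02. None of the 4 passed the test.

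The endosomal and lysosomal members include *Gpnmb*, a transmembrane glycoprotein of late endosomes and lysosomes that rises when lysosomes are loaded. It read 12.98 and 13.01 in WT AM and 12.93 and 12.94 in *Trem-2*-/- AM. The genotypes did not overlap, yet the log2 fold change was only -0.06 (95% interval -0.23 to 0.11, limma's adjusted p = 0.80). *Sdc4*, encoding syndecan-4, a heparan sulfate proteoglycan to which this glycoprotein binds, had 0.46 (limma's adjusted p = 0.16). It was called higher by limma with an intensity trend and robust variance and with a filter on mean log2 of at least 6.

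*Cd63*, a tetraspanin of late endosomes and exosomes, read 10.30 and 10.24 in WT AM and 10.03 and 10.34 in *Trem-2*-/- AM. The *Trem-2*-/- arrays lay on either side of the WT arrays, and the log2 fold change of -0.09 (95% interval -0.37 to 0.19, limma's adjusted p = 0.82) turned to 0.067 without *Trem-2*-/- replicate 1. *Cd9*, the plasma membrane tetraspanin, read 13.32 and 13.36 in WT AM and 13.32 on each *Trem-2*-/- array, a log2 fold change of -0.02 (95% interval -0.19 to 0.15, limma's adjusted p = 0.94). The other tetraspanin genes *Cd81* (-0.08), *Cd82* (0.10), *Cd151* (-0.16), *Cd53* (-0.02) and *Cd37* (-0.16) did not pass the test either.

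*Cst7* encodes cystatin F, which inhibits cysteine cathepsins inside the endolysosomal system. It read 5.16 and 5.15 in WT AM and 5.04 and 5.18 in *Trem-2*-/- AM, below the median on all 4 arrays. The genotypes overlapped, and the log2 fold change was -0.04 (95% interval -0.24 to 0.15, limma's adjusted p = 0.88). No detection call was at hand, so whether a signal at this height can show a difference is not known.

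The genes of cysteine proteases of the same compartment did not pass the test. *Ctsc*, which encodes the cathepsin that activates granule proteases, differed by 0.06, *Ctsh* by 0.17, *Lgmn*, encoding legumain, by -0.15 and *Ctsl* by -0.20. The adjusted p of these 4 genes ran from 0.40 to 0.81 in limma.

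Among the surface and recognition members, *Itgax* encodes the CD11c chain of complement receptor CR4, which pairs with CD18. It read 12.84 on each WT array and 12.75 and 12.68 in *Trem-2*-/- AM. The *Trem-2*-/- arrays were lower, with a log2 fold change of -0.12 (95% interval -0.30 to 0.05, limma's adjusted p = 0.58).

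Of the genes for the chains that share CD18 with CD11c, *Itgam* (CD11b) fell by 0.54 on the log2 scale (standard error 0.07, limma's adjusted p = 0.049), a call that was lost with any 1 array left out (limma's adjusted p = 0.15 to 0.28), under SAM, with the replicate block, with median centring and with all probe sets fitted together. *Itgal* (CD11a), at 0.21, *Itgad* (CD11d), at -0.13, and *Itgb2* (CD18) itself, at -0.07, did not pass. From these arrays the study reported no difference in *Itgam* and *Itgb2*, the genes of the CD11b/CD18 receptor, with SAM as its named test. The difference between *Itgam* and *Itgax* was not tested.

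*Lgals3* encodes galectin-3, a lectin that binds beta-galactosides on the cell surface and on damaged lysosomes. It read 12.76 and 12.81 in WT AM and 12.59 and 12.55 in *Trem-2*-/- AM. This was the widest separation among the members, with a log2 fold change of -0.22 (95% interval -0.39 to -0.04, unadjusted p = 0.022 and limma's adjusted p = 0.35), or 86.0% of the WT signal.

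The call for *Lgals3* changed with the variance model and with the adjustment. With an intensity trend and robust variance, limma called it as the only member, at an adjusted p of 0.0024, where 1.45% of all genes were called lower. The methods' t-test is the one the study names for group comparisons in general, whereas SAM is named for the arrays. By that t-test without adjustment, at p below 0.05, *Lgals3* and *Lpl* passed, where 5.27% of all genes were lower. After Benjamini-Hochberg adjustment of the t-test *Lgals3* did not (adjusted p = 0.45). With 1 array left out, its log2 fold change stayed between -0.24 and -0.20 (limma's adjusted p = 0.44 to 0.73).

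Of the other galectin genes, *Lgals1* differed by -0.28, *Lgals9* by -0.27 and *Lgals8* by 0.10, and none passed the test. Limma's unadjusted p was 0.022 for *Lgals1*, 0.0092 for *Lgals9* and 0.19 for *Lgals8*. Limma with an intensity trend and robust variance called *Lgals1* and *Lgals9* lower, but did not call *Lgals8*. The methods' t-test without adjustment called *Lgals9* lower and *Lgals8* higher, but did not call *Lgals1*. Such calls were thus not particular to *Lgals3* among the galectin genes. *Lgals3bp*, encoding a secreted ligand of galectin-3, differed by -0.02.

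*Lilrb4a* encodes an inhibitory receptor with immunoreceptor tyrosine-based inhibitory motifs, which opposes signalling through DAP12 and related adaptors. It read 12.54 and 12.62 in WT AM and 12.55 and 12.64 in *Trem-2*-/- AM. The genotypes overlapped, with a log2 fold change of 0.02 (95% interval -0.17 to 0.21, limma's adjusted p = 0.95). Its neighbour *Lilr4b*, formerly *Gp49a*, differed by -0.01. These 2 genes are near-identical in sequence, so their probe sets may each record both transcripts. *Pirb*, a further inhibitory receptor of the family, had 0.25 (limma's adjusted p = 0.35).

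*Csf1*, the measured ligand among the members, encodes macrophage colony-stimulating factor. It read 5.16 and 5.25 in WT AM and 5.29 and 5.02 in *Trem-2*-/- AM, again below the median on all 4 arrays, and the genotypes overlapped. The log2 fold change was -0.05 (95% interval -0.31 to 0.22, limma's adjusted p = 0.91) and lay between -0.18 and 0.091 when single arrays were left out. *Csf1r*, its receptor, differed by 0.13 and *Il34*, the second ligand of that receptor, by 0.02.

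The level of *Spp1* was not measured, and the genes of receptors for osteopontin, which do not report it, were read as partners. *Cd44* differed by 0.05, *Itgav* by 0.03, *Itgb3* by -0.17 and *Itgb5* by 0.18. *Itga4* rose from 10.73 to 11.22 and *Itga9* from 5.13 to 5.59 in the group means according to SAM. Limma's main fit did not call them, with log2 fold changes of 0.50 (95% interval 0.29 to 0.70, adjusted p = 0.099) and 0.47 (95% interval 0.28 to 0.65, adjusted p = 0.083). With an intensity trend and robust variance, limma called both higher, and with a filter on mean log2 of at least 6 it called *Itga4*.

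Counted together, 25 receptors, ligands, partners and enzymes tied to the member proteins were measured. Limma's main fit called 0 of them and SAM 2 (*Itga4* and *Itga9*). At an unadjusted p below 0.05 in limma, 5 were higher and 1 was lower, against 11.5% of all genes in either direction. With an intensity trend and robust variance, limma called 5 higher and 1 lower, beside 379 higher and 290 lower among all 19946 genes. The median log2 fold change of the 25 was 0.02. Of 17 measured genes from the members' own families, none rose and 1 fell, *Itgam*, with a median of -0.01.

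**Figure D2:**
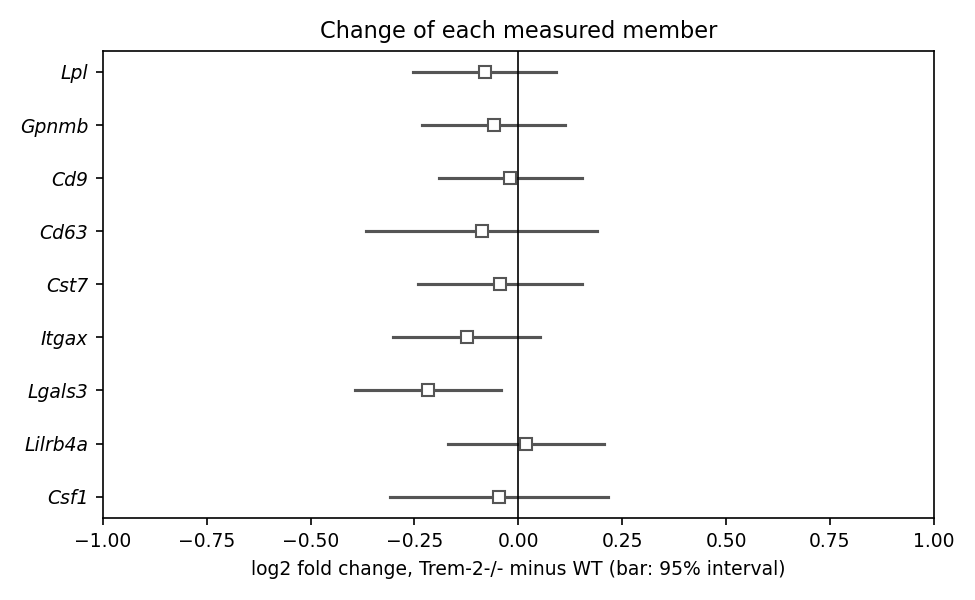
Difference between genotypes in log2 value for each measured member (*Trem-2*-/- minus WT), with 2 arrays for each genotype. Squares are estimates and bars 95% intervals from limma, not adjusted for the number of genes; every interval lies between -0.39 and 0.22, and that of *Lgals3* alone does not reach 0.

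The intervals rest on the spread of these arrays of pooled RNA, which may be technical only. They therefore do not bound a difference between genotypes across mice. The lowest limit among the 9 members was 76.1% of the WT signal, for *Lgals3*, and the highest was 116%, for *Csf1*. These limits hold for RMA signals from 2 arrays per genotype, without adjustment for the number of genes. Of the members, 6 (*Lpl*, *Gpnmb*, *Cd9*, *Itgax*, *Lgals3* and *Lilrb4a*) lay among the brightest 1% of the 35557 probe sets. How evenly an array responds to more or less RNA at that height was not tested. *Cst7* and *Csf1*, at the other end, had signals below the array medians. Whether signals at that height can show a difference is not known.

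The other genes of the same programme were taken from lists of textbook genes, written with earlier results of these data known. Of 10 further measured genes of the TREM-2-dependent microglial stage, 0 were called higher and 0 lower by limma and 0 by SAM, while 3 were higher and 1 was lower at an unadjusted p below 0.05. The largest differences were in *Ch25h*, the cholesterol 25-hydroxylase, at 0.32 (limma's adjusted p = 0.29), the chemokine gene *Ccl6*, at 0.29 (limma's adjusted p = 0.21), and the metalloproteinase inhibitor gene *Timp2*, at 0.25 (limma's adjusted p = 0.31). *Axl*, a receptor for apoptotic cells, differed by 0.08, *Clec7a*, the beta-glucan receptor Dectin-1, by 0.04, and *Cd68*, a lysosomal glycoprotein, by -0.04. *Ctsl*, the gene lower at the unadjusted threshold, differed by -0.20 (limma's adjusted p = 0.40), *Ank* by -0.20, *Cadm1* by -0.08 and *Igf1* by 0.0037. The median of these 10 genes was 0.02. With an intensity trend and robust variance, limma called 3 of them higher and 1 lower, beside 379 higher and 290 lower among all 19946 genes.

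Of 7 genes of the preceding, TREM-2-independent stage, 1 rose and none fell. *Apoe*, encoding the lipoprotein component apolipoprotein E, read 9.39 and 9.41 in WT AM and 11.17 and 10.98 in *Trem-2*-/- AM, a log2 fold change of 1.67 (standard error 0.09, limma's adjusted p = 0.0015), and it passed with any 1 array left out, but not when all 35557 probe sets were fitted together (adjusted p = 0.062 in limma). *Lyz2* (0.11), *B2m* (0.10), *Ctsd* (0.05), *Fth1* (0.04), *Tyrobp* (-0.02) and *Ctsb* (-0.02) did not pass the test, and the median of the list was 0.05.

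Of 10 further genes of lipid-associated macrophages, 1 rose and none fell in limma's main fit. At an unadjusted p below 0.05, limma gave 1 higher and 2 lower, *Lgals1* (-0.28) and *Cd36*, against 11.5% of all genes in either direction. With an intensity trend and robust variance, limma called these 2 lower, where 1.45% of all genes were called lower. *Pla2g7*, encoding a secreted phospholipase that cleaves platelet-activating factor and oxidized phospholipids, read 11.57 and 11.58 in WT AM and 12.60 and 12.64 in *Trem-2*-/- AM. Its log2 fold change was 1.05 (standard error 0.07, limma's adjusted p = 0.0042), and it passed in 3 of the 4 fits with 1 array left out, but not without *Trem-2*-/- replicate 2 (limma's adjusted p = 0.055) or with all probe sets fitted together (limma's adjusted p = 0.089). The fatty acid binding protein genes *Fabp4* (-0.0045) and *Fabp5* (-0.12), the lysosomal lipase gene *Lipa* (0.0024), the lipid droplet gene *Plin2* (-0.03) and the fatty acid receptor gene *Cd36* (-0.25, limma's adjusted p = 0.28) did not pass.

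**Figure D3:**
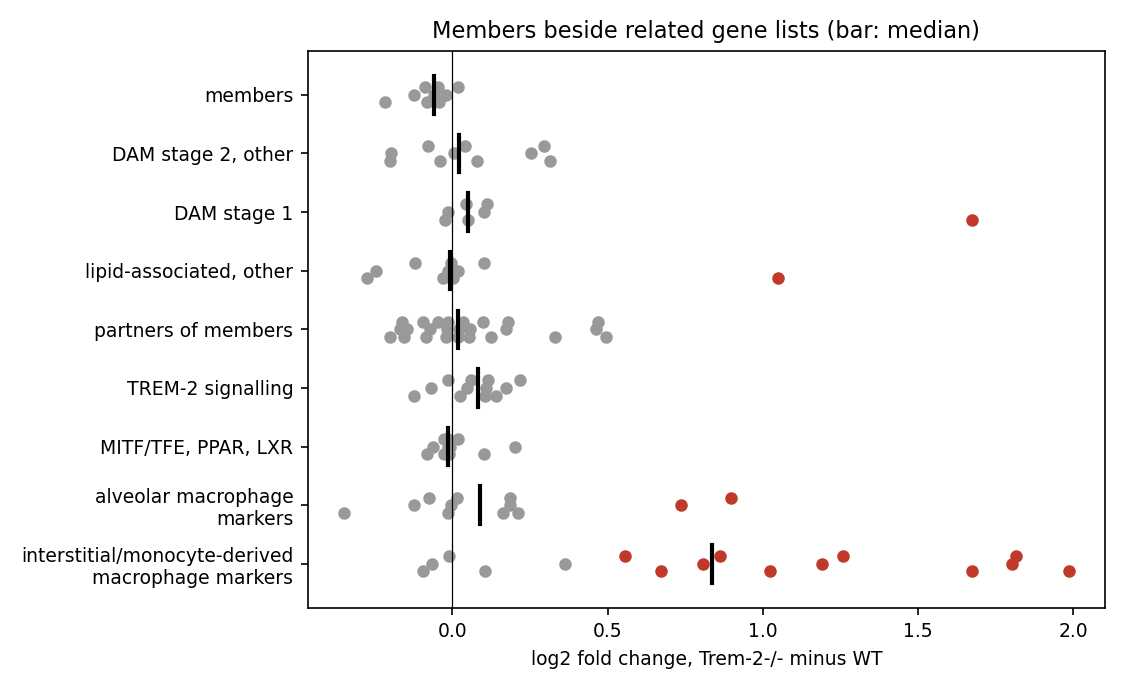
Difference between genotypes in log2 value (*Trem-2*-/- minus WT) for each measured gene of 9 lists; DAM stands for disease-associated microglia, points in red had an adjusted p below 0.05 in limma and all others are grey, and each black bar is a median. The median was -0.06 for the members, 0.02 for other genes of DAM stage 2, and 0.84 for markers of interstitial or monocyte-derived macrophages.

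Signalling genes downstream of TREM-2 and the transcription factors linked to this programme were without calls in limma's main fit and under SAM. Of 12 measured genes from the adaptors to the kinases and the CARD9 complex, 0 passed by limma, by SAM or at an unadjusted p below 0.05, and their log2 fold changes ran from -0.12 for *Malt1*, a protease of that complex, to 0.22 for *Pik3r1*, a regulatory subunit of PI3-kinase. *Card9* itself had 0.17, the phospholipase gene *Plcg2* 0.14 and the kinase gene *Syk* 0.11. The 11 measured transcription factor genes were those of the MITF/TFE, PPAR and LXR families, *Rxra*, *Bhlhe40* and *Bhlhe41*. By limma or SAM 0 of them passed, and 1 had an unadjusted p below 0.05 in limma. That was *Tfec*, a macrophage member of the MITF/TFE family, at 0.20 (limma's adjusted p = 0.37). With an intensity trend and robust variance, limma called *Tfec* higher, as the only 1 of the 11 called. *Mitf*, a known activator of *Gpnmb*, differed by -0.01, *Tfe3* by -0.08, the LXR gene *Nr1h3* by 0.10, *Pparg* by -0.02 and *Ppard* by -0.01.

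Genes that mark interstitial or monocyte-derived macrophages were the list with most calls. Of 16 measured markers, limma called 11 higher and none lower, against 0.431% of all genes called higher and 0.135% called lower. The whole list was written with earlier results of these data known, so this count is no independent evidence of direction. The summed linear signal of the 16 was 6570 to 6901 on the WT arrays and 13433 to 13654 on the *Trem-2*-/- arrays. Such a sum is weighted to the brightest genes, in WT AM *Cd74* (mean 11.32) and *H2-Aa* (10.68). The list holds the genes of C1q, which the study chose on these arrays and which are thus no independent evidence of direction. It also holds *Apoe*, *Ccr2* (0.81), *Cx3cr1* (0.67), *Cd14* (0.56), *Cd74* (0.86), *H2-Aa* (1.02), *Tmem176b* (1.26) and *Pf4* (1.98). *Ms4a7* (0.36), *Cd163* (0.10), *Maf* (-0.01), *Folr2* (-0.07) and *Lyve1* (-0.09) did not pass. Of the 11 calls, 5 (*Apoe*, *C1qb*, *C1qc*, *Pf4* and *Tmem176b*) held whichever array was left out, 2 (*C1qa* and *H2-Aa*) held in some of these fits, and 4 (*Ccr2*, *Cx3cr1*, *Cd14* and *Cd74*) in none. With all probe sets fitted together, *C1qb* and *C1qc* alone passed. The part of these cells in the rise of *Apoe* was not tested.

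Of 12 measured AM markers, *Itgax* among them, 2 rose and none fell, namely *Car4* (0.90) and *Fabp1* (0.74). Of 8 lung epithelial markers, *Cldn18* (1.23) and *Scgb1a1* (0.91) rose and none fell, but the list went both ways, with 4 differences above 0 and 4 below. *Krt18* had 0.95 (limma's adjusted p = 0.16), a call by SAM, with an intensity trend, with the replicate block and with the filter on mean log2. *Cdh1*, encoding E-cadherin, had -0.45 (limma's adjusted p = 0.16) and was called lower with an intensity trend and with that filter. *Sftpc* differed by 0.44, *Sftpb* by -0.10, *Epcam* by -0.09 and *Sftpa1* by -0.08. None of the limma calls for *Car4*, *Fabp1*, *Cldn18* and *Scgb1a1* held in every fit with 1 array left out, and those of *Fabp1* and *Scgb1a1* held in none. No dendritic cell, neutrophil, T, NK or B cell marker passed in limma, 4 of those 24 had an unadjusted p below 0.05, and SAM called 1, *Csf3r*. That gene was also called with an intensity trend, with the replicate block and with the filter. The summed signal of the AM markers was 32321 to 32824 on the WT arrays and 32997 to 33951 on the *Trem-2*-/- arrays.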

How the data were processed

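RNA of alveolar macrophages was measured on 4 Affymetrix arrays. The authors combined the intensity files, normalized them by RMA and deposited log2 values. The build mm9 is named in the submitters' processing notes, as is RMA, for which no version is given there. Scanner intensities were not analysed here, so background correction could not be varied.

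Probe sets were named through the platform annotation (21797 with 1 symbol, 1613 with several, 12147 not listed), and 21698 were matched by gene identifier to RefSeq genes of GRCm38.p6, used for symbols only. Where a gene had several probe sets (999 genes), the brightest on average was kept, and each member had 1. Genotypes were compared over 19946 genes by a two-sided limma fit (version 3.58.1, R 4.3.3; lmFit, then eBayes) without a replicate term, and p-values were adjusted by Benjamini-Hochberg, with calls at 0.05. With 2 arrays against 2, the smallest two-sided p of an exact permutation test is 0.333. The fit was tested on simulated data.

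The members and gene lists were chosen with earlier results of these data known. The text names *Trem2*, all members, of each other gene list the called genes and the 3 largest changes, of the cell type marker lists the called genes, and partners of a member by role; further names were chosen after their values were seen. Alternatives were SAM at a false-discovery rate of 5% over all 6 assignments of the arrays, the methods' t-test, a replicate block, limma with an intensity trend and robust variance, quantile normalization, median centring, a filter on mean log2 of at least 6, the mean of probe sets, all rows as probe sets, and leaving out each array.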

Additional observations from a re-analysis of the deposited data

How the results depend on the processing

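Across the 9 members and up to 14 alternatives each, 119 of 124 log2 fold changes kept their direction, and the 5 that turned came from leaving out 1 array in genes with differences near 0. In those fits *Lilrb4a* lay between -0.022 and 0.059, *Cst7* between -0.11 and 0.028, *Cd63* between -0.24 and 0.067 and *Csf1* between -0.18 and 0.091. No member was called higher under any alternative run. The number called lower was 0 except with an intensity trend and robust variance (1) and with the unadjusted p of the methods' t-test (2). *Cst7* and *Csf1* had no value under the filter on mean log2 of at least 6. Over the 86 other listed genes, the cell type marker lists left out, 2 were called higher and 1 lower. These counts were 4 and 0 under SAM, 16 and 8 with the unadjusted t-test of the methods, 14 and 5 with an intensity trend, and 0 and 0 with all rows as probe sets. The filter gave 5 higher. The replicate block and median centring gave 0 lower. With 1 array left out there were 1 to 2 higher and 0 to 0 lower. The log2 fold change of *Trem2* (-2.11) passed in every fit but the methods' t-test after Benjamini-Hochberg adjustment, which called none of these genes, 0 higher and 0 lower (adjusted p = 0.41 for *Trem2*). The cause of these differences was not tested.

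Over all 19946 genes, limma called 86 higher and 27 lower, against 173 and 19 under SAM, 379 and 290 with an intensity trend, 207 and 150 with the filter, 782 and 1052 with the unadjusted t-test, 0 and 0 after its adjustment, 21 and 2 with all rows as probe sets, and 22 to 43 and 4 to 7 with 1 array left out. The replicate block, which rests on shared numbers alone, gave 98 and 31, and arrays with the same number did not deviate together (r = -0.05 across genes).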
